A study of Mus musculus with 6 samples.

Results

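A set of 10 genes that marks the interstitial fibroblasts of muscle was followed by symbol through sorted cells of the adult mouse hind limb: Ly6a, Cd34, Pi16, Dpp4, Smoc2, Mfap5, Clec3b, Hic1, Osr1 and Dpt. All 10 are among the 24062 genes of a normalised count table of the Twist2 line, and 9 of them (all but Hic1) are among the 4939 genes of a counts-per-million (CPM) table that holds both lines. Cells were sorted on tdTomato, a red fluorescent protein that tamoxifen switches on for good in cells where a gene drives the inducible recombinase CreERT2. Every mouse was an adult on the C57BL/6 background that carried the R26-tdTO reporter and had 3 tamoxifen treatments, 10 days before muscle was taken, so the unlabelled cells had the same treatment and reporter as the labelled ones. The Twist2 line (genotype Tw2-CreERT2/+;R26-tdTO+) gave labelled cells, Tw2pos, and unlabelled cells, Tw2neg, with 2 libraries each. The Pax7 line (Pax7-CreERT2/+;R26-tdTO+) gave labelled cells, Pax7pos, and unlabelled cells, Pax7neg, with 1 library each. Whether the libraries of a group are separate animals is not in the labels, and the p-values below therefore reflect the spread among these libraries only, which may be technical.

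Interstitial fibroblasts, also called fibro-adipogenic progenitors, lie between the muscle fibres and around vessels, make much of the matrix of muscle and are commonly sorted by the receptor Pdgfra or by Ly6a (Sca-1). They are known not to be uniform: cells of the adventitia and perimysium carry Pi16, Dpp4 and Ly6a, while cells nearer to the fibres carry less of these. Several of the markers are shared with other cells. Ly6a and Cd34 are also carried by endothelium and some blood cells, Cd34 by satellite cells, and Dpp4 by some lymphocytes. In bulk samples such as these, fewer cells of a type and less RNA per cell cannot be told apart.

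The 4 Twist2 libraries held between 10902318 and 13205751 reads. In the CPM table the Pax7pos library had 6016469 reads and the Pax7neg library 7565797. The sort labels matched the driver genes: Twist2 stood at 99.4 and 222 normalised counts in Tw2pos against 22.0 and 23.2 in Tw2neg, and Pax7 at 303 CPM in Pax7pos against 0.402 CPM in Pax7neg. Pdgfra, the defining receptor of these fibroblasts, stood at 11121 and 11045 normalised counts in Tw2pos and 3345 and 2196 in Tw2neg, so the unlabelled cells of the Twist2 line were not free of them. Summed over 10 blood cell markers, the level was 1798 and 2177 normalised counts in Tw2pos and 52933 and 63269.6 in Tw2neg. Over 10 endothelial markers it was 8275 and 5827 in Tw2pos and 43051 and 15390.2 in Tw2neg. No marker of either list was at 0 reads in any of these 4 libraries, and the part of these cells in the results below was not tested.

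The markers divide into surface proteins, secreted matrix proteins and transcription factors. The upstream sequences of 4 members are shown because they stand at the ends of the patterns described below: Dpt and Cd34 kept the highest share of their level in Pax7-labelled cells among the markers, and Pi16 and Dpp4 the lowest. Each is the 250 bases before the start of transcription in RefSeq (build GRCm38.p6), read 5′ to 3′ on the strand of the gene. Capitals mark every match to the E-box CANNTG, the general motif of basic helix-loop-helix factors such as Twist2 and MyoD, which reads as CANNTG on both strands. The windows are chr1:164796413-164796662 (plus strand) for Dpt, chr1:194938571-194938820 (plus strand) for Cd34, chr17:29318632-29318881 (plus strand) for Pi16 and chr2:62412232-62412481 (minus strand) for Dpp4. The Pi16 window lies inside the span that GENCODE gives the gene, since the start sites of the annotations differ. The Dpt window runs past the GENCODE start of 164796644, so its matches CATCTG and CACATG lie inside that span. The Cd34 window ends just past its GENCODE start of 194938819.
Dpt: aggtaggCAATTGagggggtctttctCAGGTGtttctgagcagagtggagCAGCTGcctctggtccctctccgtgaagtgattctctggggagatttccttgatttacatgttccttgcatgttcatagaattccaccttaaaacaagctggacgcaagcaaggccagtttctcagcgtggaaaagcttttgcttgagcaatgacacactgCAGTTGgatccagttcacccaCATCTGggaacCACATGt
Cd34: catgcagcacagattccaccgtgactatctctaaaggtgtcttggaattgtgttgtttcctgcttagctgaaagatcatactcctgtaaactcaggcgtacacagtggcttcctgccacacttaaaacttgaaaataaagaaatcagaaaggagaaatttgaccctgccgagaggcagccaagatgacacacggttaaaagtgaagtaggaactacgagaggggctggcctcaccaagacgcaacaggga
Pi16: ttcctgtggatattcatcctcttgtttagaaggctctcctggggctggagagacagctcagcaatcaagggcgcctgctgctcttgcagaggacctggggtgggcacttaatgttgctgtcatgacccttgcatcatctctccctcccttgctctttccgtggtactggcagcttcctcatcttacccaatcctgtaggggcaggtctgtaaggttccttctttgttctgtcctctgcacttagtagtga
Dpp4: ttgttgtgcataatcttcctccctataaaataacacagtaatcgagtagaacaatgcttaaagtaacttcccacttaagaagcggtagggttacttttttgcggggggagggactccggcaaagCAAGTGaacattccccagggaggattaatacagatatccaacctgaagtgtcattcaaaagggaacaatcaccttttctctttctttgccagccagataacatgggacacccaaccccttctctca
The Dpt window held 6 matches and the Dpp4 window 1, while those of Cd34 and Pi16 held 0. Of 32851 RefSeq promoter windows of the same length, 66.2% held at least 1 match, with a median of 1. Of the 6 in Dpt, 1 reads CAGCTG, found in 13.0% of windows, and 1 reads CATCTG, found on either strand in 14.4%; each is a case of the E-box. The Dpp4 window also held the letters TATAAA, as did 12.4% of all windows on either strand. Sequences were matched for 5 of 10 members (Hic1, with 2 start sites, is the fifth). A match to letters describes the sequence and says nothing of binding.

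The first comparison, of Tw2pos with Tw2neg, asked how far the markers go with the Twist2 label. All 10 were at higher levels in both Tw2pos libraries than in either Tw2neg library. How many of all genes separate in this way was not counted. Of the 10, 8 passed the test, limma on log2 of the normalised count plus 1, at an adjusted p under 0.05. Adjustment was by Benjamini-Hochberg over 14155 genes. Before adjustment, 10 of 10 members and 49.9% of all genes had a limma p under 0.05. Among all genes tested, 18.7% passed as higher in Tw2pos, 20.0% as lower and 38.6% in either direction. The markers' median log2 fold change was 1.68, beside −0.04 over all genes. The sizes were far from equal and ran from 0.46 for Dpp4 to 2.16 for Osr1.

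**Figure D1:**
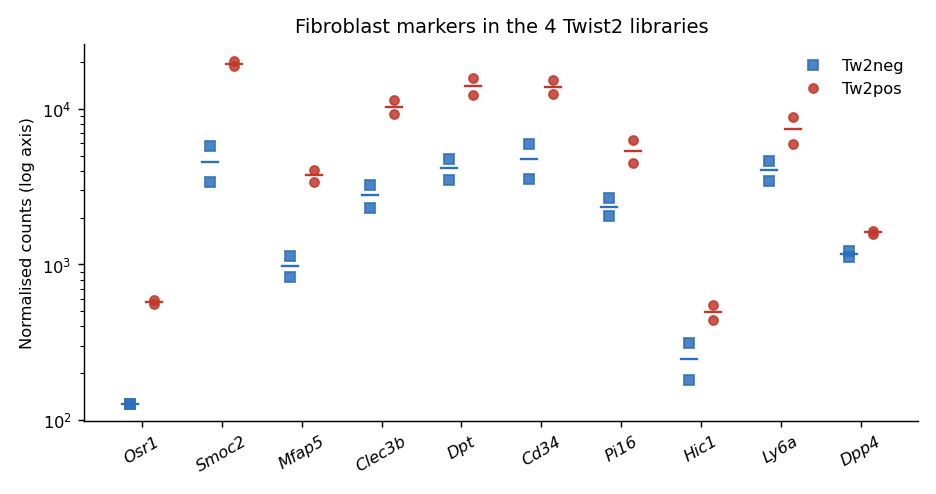
Normalised counts of the 10 markers in each Twist2 library, on a log axis, ordered by the ratio of group means; points are libraries and short lines are the means of 2 libraries. The Tw2pos points lie above the Tw2neg points for every marker, widest apart for Osr1 and closest for Dpp4.

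Among the secreted proteins, Smoc2, a calcium-binding matricellular protein (GRCm38 chromosome 17, 14279506 to 14404790, plus strand), had 18634 and 20155 normalised counts in Tw2pos and 5713 and 3404 in Tw2neg. It rose by 2.14 on the log2 scale (SE 0.33, limma adjusted p = 0.00539). The labelled libraries lay close together, while the unlabelled ones differed from each other more. Mfap5, a microfibril-associated glycoprotein (chromosome 6, 122505845 to 122529290, plus strand), had 3403 and 4062 normalised counts against 1138 and 825, a difference of 1.94 on the log2 scale (SE 0.23, limma adjusted p = 0.00253). Clec3b, the plasminogen-binding lectin tetranectin (chromosome 9, 123150946 to 123157432, plus strand), had 9286 and 11271 against 3247 and 2313, and rose by 1.90 on the log2 scale (SE 0.26, limma adjusted p = 0.00396). Dpt, dermatopontin, which binds decorin and collagen fibrils (chromosome 1, 164796644 to 164824266, plus strand), had 12286 and 15714 against 4782 and 3501. It rose by 1.76 on the log2 scale (SE 0.28, limma adjusted p = 0.00624). These 4 matrix genes kept their calls whichever library was left out.

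Of the transcription factors, Osr1 had the largest change of the 10 members. This zinc finger factor of embryonic and reactivated fibro-adipogenic progenitors (chromosome 12, 9570116 to 9581500, plus strand) had 557 and 587 normalised counts in Tw2pos and 127 and 127 in Tw2neg. It rose by 2.16 on the log2 scale (SE 0.19, limma adjusted p = 0.00114). Hic1, a zinc finger repressor of quiescent mesenchymal progenitors (chromosome 11, 75164565 to 75169519, minus strand), had 553 and 439 normalised counts against 312 and 182. A rise of 1.05 on the log2 scale for Hic1 (SE 0.31, limma adjusted p = 0.0398) did not pass without Tw2pos replicate 1 (0.88, adjusted p = 0.213), Tw2pos replicate 2 (1.21, 0.0937) or Tw2neg replicate 2 (0.66, 0.0733). Hic1 also lost the call under library total scaling (0.60, limma adjusted p = 0.140), with no filter on level (0.0692) and with no variance trend (0.0728).

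The surface markers included the smallest changes. Cd34, a sialomucin (chromosome 1, 194938819 to 194961279, plus strand), had 12466 and 15244 normalised counts in Tw2pos and 5905 and 3559.7 in Tw2neg. It rose by 1.59 on the log2 scale (SE 0.33, limma adjusted p = 0.0136) and did not pass without Tw2pos replicate 2 (1.44, 0.0787). Pi16, a secreted or membrane-bound protein of the CAP family (chromosome 17, 29317680 to 29330593, plus strand), had 4453 and 6298 against 2669.7 and 2038. Its log2 fold change was 1.18 (SE 0.26, limma adjusted p = 0.0173), and it did not pass without Tw2pos replicate 2 (0.93, 0.140) or Tw2neg replicate 2 (0.99, 0.0518). Ly6a, a lipid-anchored surface protein (chromosome 15, 74994877 to 74998031, minus strand), had 5909 and 8820.1 normalised counts against 4585 and 3447. Ly6a did not pass (log2 fold change 0.86, 95% interval 0.15 to 1.57, limma adjusted p = 0.0609). It did pass with DESeq2 (adjusted p = 0.0156), in the fit of all 6 libraries on CPM (0.0399) and without Tw2neg replicate 1 (1.07, 0.0426).

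Dpp4, a membrane peptidase (chromosome 2, 62330073 to 62412231, minus strand), had 1645 and 1567 normalised counts in Tw2pos and 1112 and 1223 in Tw2neg. Its log2 fold change of 0.46 (95% interval 0.04 to 0.88) did not pass (limma adjusted p = 0.0786), except without Tw2neg replicate 2 (0.53, 0.0412). Ly6a, Cd34 and Dpp4 are also carried by cell types whose markers were lower in Tw2pos: all 10 blood cell markers and 9 of 10 endothelial markers passed as lower, with medians of −5.46 and −2.08 on the log2 scale. Of the blood cell list, S100a9 of neutrophils was at −7.63 (limma adjusted p = 0.000357) and Lyz2 of myeloid cells at −4.15 (0.000435). Of the endothelial list, the junction proteins Pecam1 and Cdh5 were at −1.86 (0.0161) and −1.81 (0.0426), and the VEGF receptor Kdr at −2.55 (0.0235). The part of these cells in the levels of Ly6a, Cd34 and Dpp4 was not tested. Under library total scaling, which moved the median of all genes to −0.49 and the split of calls from 2645 higher and 2825 lower to 1607 and 5257, the log2 fold change of Ly6a was 0.41 and that of Dpp4 0.01. Relative to the median they were then 0.90 and 0.50, against 0.91 and 0.51 as deposited. Quantile normalization moved the median of all genes to 0.10, and Ly6a (0.44) and Dpp4 (0.46) again did not pass.

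Replicates of a group differed in a common direction for most members. In Tw2neg, replicate 1 was the higher of the pair for 8 of 10 members. Dpp4 was lower there, and Osr1 was all but level (126.9 against 127.1 normalised counts). In Tw2pos replicate 2 was the higher for 8 of 10, all but Dpp4 and Hic1. The share of all genes that lean the same way was not counted, so this is not shown to be particular to the members. Per kilobase of exon, which allows levels of different genes to be compared, Clec3b led in Tw2pos with 10361 normalised counts per kilobase, then Dpt with 8121 and Ly6a with 6112. In Tw2neg Ly6a led with 3333, then Clec3b with 2803 and Dpt with 2402. Smoc2 had 2790.2 per kilobase in Tw2pos and 656 in Tw2neg, Cd34 1901 and 649, Pi16 845 and 369.9, and Dpp4 254 and 185. Osr1 went from the lowest of the 10 in Tw2neg, at 61.5, to 277 in Tw2pos, above Dpp4 and Hic1.

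Lists of neighbouring genes give the setting. Of 12 core fibroblast genes, 9 passed as higher in Tw2pos and 3 did not pass, with a median log2 fold change of 2.39. Mgp, an inhibitor of matrix calcification, was at 3.08, while Gsn, gelsolin, at 2.15 (limma adjusted p = 0.203) and Col1a2, a chain of collagen I, at 2.75 (0.0628) were among those that did not pass. Of 11 genes known from adventitial fibroblasts, 6 passed as higher and 5 did not pass, with a median of 1.33. Fibronectin, Fn1, was at 2.16 and Igfbp6, a binding protein of insulin-like growth factors, at 2.30. Of 10 genes known from parenchymal fibroblasts, 8 passed as higher and 2 did not, with a median of 1.51. Gdf10, of the TGF-beta family, was at 2.85, Sparcl1 at 1.49, and the basement membrane collagen Col4a1 at 1.33 (limma adjusted p = 0.0651) did not pass. All 8 tendon cell genes passed as higher, with a median of 3.05, Scx, a tendon transcription factor, at 4.05, Thbs4 at 3.07 and the proteoglycan Fmod at 2.85. Of the 10 markers, 0 reached the median of the tendon list, and none of these differences between lists was tested. For satellite cells 1 gene of 9 was higher, Chodl at 2.46, and 3 were lower, among them the calcitonin receptor Calcr at −1.60, while Sdc4 at 0.04 (limma adjusted p = 0.922) did not pass. For pericytes 1 of 8 was higher, Pdgfrb at 1.91, and Notch3 at −0.23 (0.785) did not pass. For Schwann cells 4 of 6 were lower, among them the myelin gene Mbp at −2.50.

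**Figure D2:**
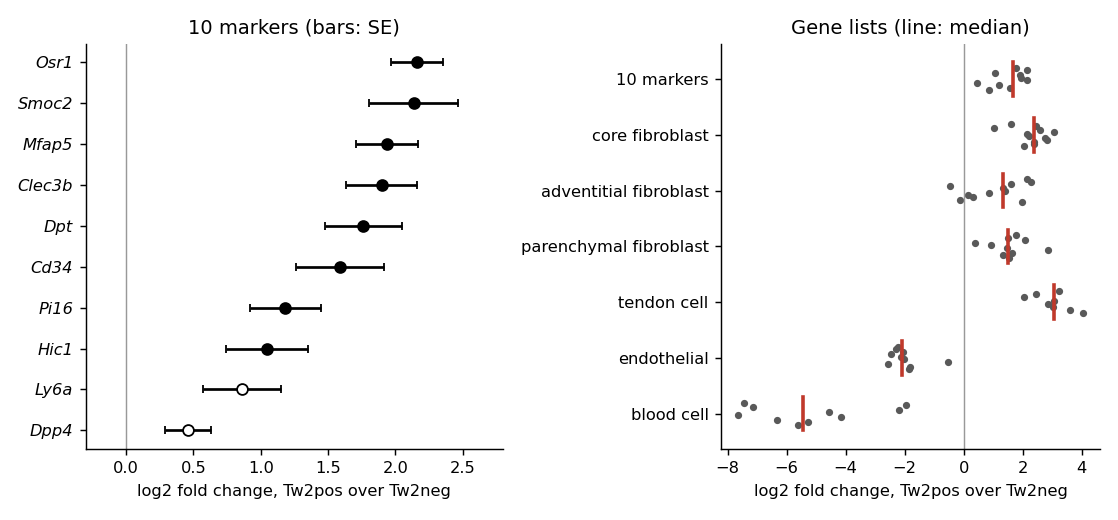
Left, log2 fold change of each marker between Tw2pos and Tw2neg with its standard error; filled points passed at an adjusted p under 0.05, and open points (Ly6a and Dpp4) did not. Right, the same measure for every gene of the marker set and of 6 other lists, with a red line at each median; the markers' median of 1.68 lies below those of the core fibroblast list (2.39) and the tendon list (3.05).

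Because Pdgfra itself rose (log2 fold change 2.03, SE 0.27, limma adjusted p = 0.00362), each marker was also expressed as a percentage of the Pdgfra level in the same library. This was added after the values were seen and compares each gene with itself only. Ly6a came to 53.1% and 79.9% of Pdgfra in the Tw2pos libraries and 137% and 157% in Tw2neg. Dpp4 came to 14.8% and 14.2% against 33.3% and 55.7%, and Pi16 to 40.0% and 57.0% against 79.8% and 92.8%. Hic1 came to 4.98% and 3.97% against 9.34% and 8.26%. Per Pdgfra these 4 members were thus lower in both labelled libraries than in either unlabelled one, although their levels were higher. The same held by a smaller margin for Cd34 (112% and 138% against 177% and 162%) and, barely, for Dpt (110% and 142% against 143% and 159%). The median log2 fold change of all genes was −0.04, and any gene that rose less than Pdgfra is lower on this scale. How many of all genes separate in this way per Pdgfra was not counted, so it is not shown to be particular to these members.

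For the other 4 members the groups overlapped on this scale. Smoc2 came to 168% and 182% in Tw2pos against 171% and 155% in Tw2neg, Clec3b to 83.5% and 102% against 97.1% and 105%, Mfap5 to 30.6% and 36.8% against 34.0% and 37.6%, and Osr1 to 5.01% and 5.32% against 3.79% and 5.79%. With 2 libraries a group an exact two-sided permutation test cannot give a p under 0.333, so these ratios carry no test. The geometric mean of the 12 core fibroblast genes was also used as the divisor in place of Pdgfra. A change of divisor moves the log2 difference of every gene by the same amount, so it cannot change their order. The differences became −1.83 for Dpp4, −1.43 for Ly6a, −1.24 for Hic1 and −1.11 for Pi16. Those of Smoc2 (0.10 to −0.16) and Osr1 (0.14 to −0.12) changed sign. On that scale only Osr1 overlapped between the groups, and the other 9 of 10 members, Smoc2, Mfap5 and Clec3b included, were lower in both Tw2pos libraries than in either Tw2neg library. The core list rose by a median log2 fold change of 2.39, beside −0.04 over all genes. A gene that rose less than the core list is thus lower on that scale, member or not. How many of all genes separate in this way was not counted.

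**Figure D3:**
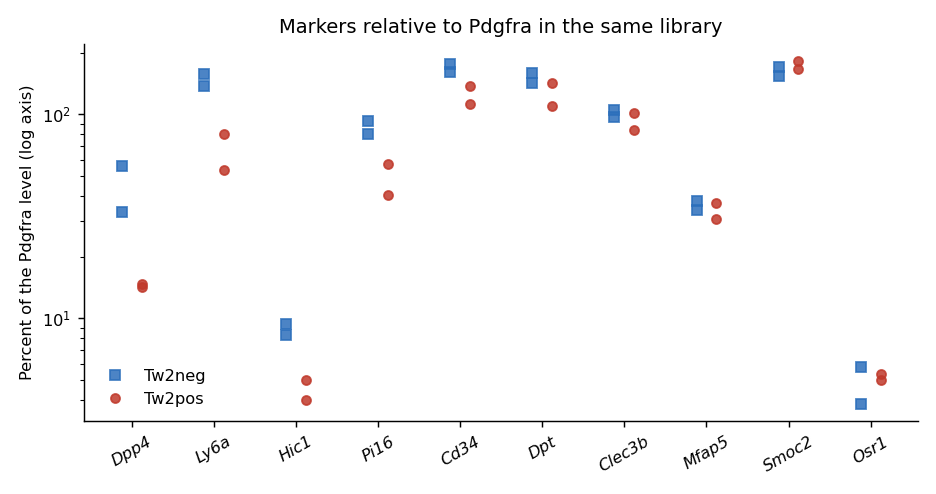
Level of each marker as a percentage of Pdgfra in the same library, on a log axis, with 1 point per library and genes ordered by the difference between the groups. Dpp4, Ly6a, Hic1 and Pi16, at the left, have both Tw2pos points below both Tw2neg points, while the points of the 4 genes at the right overlap.

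The second comparison, the one named in the series design, set Tw2pos against Pax7pos, the satellite cell fraction, on log2 of CPM plus 1 in 1 limma fit of the 6 libraries. Each lone Pax7 library was taken to have the spread seen in the Twist2 pairs. All 9 members in this table passed as higher in Tw2pos, where 33.7% of the 4939 genes did and 58.8% passed in either direction. The size differed widely between members. Each gene of this table is 2-fold or more away from Tw2neg in at least 1 of the 3 ratios deposited with it, so the shares of genes that passed describe genes chosen on these same libraries. Hic1, which has no row there, stood at 44.7 and 35.5 CPM in Tw2pos and 25.1 and 14.5 in Tw2neg when rebuilt from its reads, a log2 ratio of 0.98. Its level in Pax7 cells was not analysed here. Hic1 was above 10 CPM in all 4 Twist2 libraries, and its ratio there was under 2-fold. The genes were chosen by such ratios, so the counts of 9 members leave out a member that the choice itself may have removed. What the missing row says of Hic1 in Pax7 cells was not tested.

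Pi16 showed the largest contrast. It had 359.7 and 509 CPM in Tw2pos and 1.57 CPM, from 15 reads, in Pax7pos, which is 7.38 apart on the log2 scale (SE 0.36, limma adjusted p = 2.65e-05). Clec3b had 750.1 and 911 CPM against 5.43 (log2 fold change 7.01), and Smoc2 had 1505 and 1628 against 16.2 (6.51). Dpp4, whose difference within the Twist2 line did not pass, had 133 and 127 CPM against 0.522 CPM, from 5 reads, a log2 fold change of 6.42. Adding 1 to CPM understates the change at so low a level. By edgeR Dpp4 was at 7.93, below Pi16 at 8.11 and above Clec3b at 7.25 and Smoc2 at 6.60. Mfap5 had 275 and 328 CPM against 3.13 (6.19), and Ly6a 477 and 713 against 12.2 (5.47). For these 6 genes the Pax7-labelled library held little signal.

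Osr1, Cd34 and Dpt differed less. Osr1 had 45.0 and 47.5 CPM in Tw2pos and 1.04 CPM, from 10 reads, in Pax7pos, a log2 fold change of 4.53 on a scale that understates the change of low genes. Cd34, which satellite cells are known to carry, had 1007 and 1232 CPM against 95.5 CPM from 914 reads, with 3.53 between the groups on the log2 scale (SE 0.42, limma adjusted p = 0.000449). Dpt had 992 and 1269.6 CPM against 192 CPM from 1835 reads, the smallest difference of the 9 at 2.54 (SE 0.38, limma adjusted p = 0.00139). Per kilobase of exon, Dpt was at 111 CPM per kilobase in Pax7pos, against 13.1 for Cd34, 10.1 for Ly6a and 0.246 for Pi16. Under quantile normalization, which moved the median of all genes from 0.41 to −0.15 and the split of calls from 1665 higher and 1240 lower to 862 and 998, the 9 members again all passed as higher and ranged from 2.41 (Dpt) to 5.57 (Pi16). In the same contrast 11 of 12 core fibroblast genes, 8 of 8 adventitial genes, 6 of 9 parenchymal genes and 8 of 10 endothelial genes in the table passed as higher in Tw2pos, with median log2 fold changes of 5.01, 5.28, 3.22 and 1.96. Of 7 satellite cell genes 6 passed as lower, with a median of −4.28.

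Pax7pos and Pax7neg, with 1 library each, were compared without a test. By the log2 difference of CPM plus 10, all 9 members were lower in Pax7pos by at least 2-fold, as were 33.0% of genes (18.3% were higher, 51.3% either), and the differences ran from −1.21 (Osr1) to −5.29 (Clec3b). Under quantile normalization, which turned the split of such genes from 905 higher and 1631 lower to 1265 and 1099, Osr1 was at −0.41 and no longer past that size. As a share, Pax7pos held 25.1% of the Pax7neg level of Dpt (exact 95% interval 23.8 to 26.3, for counting error only) and 14.3% of that of Cd34 (13.3 to 15.3). Osr1 was at 6.70% (3.16 to 12.6). The remaining 6 members were all at 2% or less: Smoc2 at 1.99%, Ly6a at 1.90%, Mfap5 at 1.49%, Clec3b at 0.913% (0.681 to 1.20), Dpp4 at 0.456% (0.148 to 1.07) and Pi16 at 0.382% (0.214 to 0.631).

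Pdgfra, at 4.28 CPM from 41 reads, was at 1.62% (1.16 to 2.21). The intervals of Smoc2, Ly6a, Mfap5 and Clec3b overlapped that of Pdgfra, those of Pi16 and Dpp4 lay below it, and those of Osr1, Cd34 and Dpt above it. The 12 core fibroblast genes ranged from 1.49% (Lum) to 96.6% (Tcf7l2), with a median of 6.58%. Col3a1, at 20.7%, Prrx1, at 36.7%, and Fbn1, at 46.0%, stood as high as Dpt or near it, so a share of that size was not particular to Dpt. These 3 were singled out after their values were seen. Summed over the satellite cell list the level was 5579.6 CPM in Pax7pos and 656 in Pax7neg, over the endothelial list 148 and 1289, over the blood cell list 89.5 and 3812.5, and over the core fibroblast list 7076 and 76115. By the same log2 size, all 10 blood cell genes and 9 of 10 endothelial genes were lower in Pax7pos, with medians of −3.89 and −2.71 beside −4.07 for the 9 members, and the part of those cells in the members' levels in Pax7neg was not tested. Whether the signal in Pax7pos comes from satellite cells or from other cells in the sort was not tested.

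**Figure D4:**
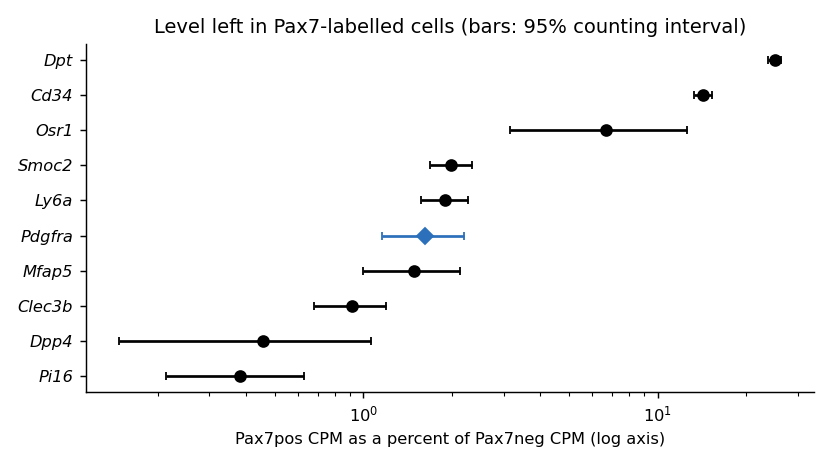
CPM in Pax7pos as a percentage of CPM in Pax7neg for the 9 markers and Pdgfra (blue diamond), on a log axis, with exact 95% intervals that cover counting error only. Dpt (25.1%), Cd34 (14.3%) and Osr1 (6.70%) lie to the right of Pdgfra (1.62%), and Pi16 and Dpp4 to its left.

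The third comparison set the unlabelled cells of the lines against each other. The sort removed cells with a Twist2 label from Tw2neg, and cells with a Pax7 label from Pax7neg. All 9 members were at a lower level in both Tw2neg libraries than in the Pax7neg library. The log2 differences ran from −0.29 (Dpp4) to −1.43 (Clec3b). How many of all genes lay in this order was not counted, and the median difference of all genes was −0.06. In the limma fit of 6 libraries 0 members passed as lower, where 0.0607% of all genes passed in either direction. At an unadjusted p under 0.05 there were 6 members of 9, beside 15.6% of all genes, and edgeR called 0. Clec3b had 261 and 185 CPM in Tw2neg and 595 in Pax7neg (log2 fold change −1.43, SE 0.35, limma adjusted p = 0.145), and Mfap5 had 91.4 and 66.0 against 211 (−1.43, SE 0.34, 0.145). Dpp4 had 89.3 and 97.7 CPM against 115, an interval of the log2 difference from −1.0 to 0.42. Satellite cell genes stood the other way and farther apart, though 0 of 7 passed: Pax7 had 45.7 and 14.8 CPM in Tw2neg and 0.402 in Pax7neg (log2 fold change 4.28, limma adjusted p = 0.0545), Cdh15 was at 4.02 (0.05002) and Myod1 at 3.75 (0.05002). These 3 were chosen after their values were seen, and their part in the members' values was not tested. Calls turned on the Tw2neg libraries, for members and for all genes alike. With 1 library left out, the members' log2 differences lay between −1.68 (Clec3b) and −0.23 (Dpp4). That of Smoc2 ranged from −1.57 to −0.82. In a fit that keeps 1 Tw2neg library the spread comes from the Tw2pos pair alone.

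Across the 4 groups 7 of 9 members had the same order of libraries, from Tw2pos down to Pax7neg, Tw2neg and Pax7pos. It was not counted how many of all genes follow this order, so it is not shown to be particular to the members. For Ly6a (645 CPM in Pax7neg) and Pi16 (409.8) the Pax7neg library lay between the Tw2pos libraries, and for the other 7 it lay below both. In contrasts of the same fit that were added after this order was seen, Osr1 was the only member that passed as higher in Tw2pos than in Pax7neg (17.9% of genes did, 24.3% passed as lower and 42.2% either way). It had 15.6 CPM in Pax7neg, a log2 difference of 1.51 (SE 0.37, limma adjusted p = 0.0155), and did not pass without Tw2pos replicate 1 (1.55, 0.182) or replicate 2 (1.47, 0.204). Cd34 (0.74), Smoc2 (0.95) and Mfap5 (0.51) did not pass with all libraries (limma adjusted p = 0.174, 0.0902 and 0.240). Leaving out a Tw2neg library does not change these differences, only the spread they are set against. It raised the calls among all genes as well as among the members. The sign was not fixed for Ly6a (−0.14, and 0.14 without Tw2pos replicate 1) or Pi16 (0.06, and −0.19 without Tw2pos replicate 2 and −0.16 under quantile normalization). Between Tw2neg and Pax7pos 8 of 9 members passed as higher in Tw2neg (45.4% of genes did, 32.5% passed as lower and 77.8% either way). Dpt was the exception, at 384 and 279.9 CPM against 192, at a log2 difference of 0.77 (SE 0.38, limma adjusted p = 0.0987). It did pass without Tw2neg replicate 2 (1.0, 0.0149) and under quantile normalization (1.40, 0.0112), where Osr1 turned from 2.45 to −0.12.

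**Figure D5:**
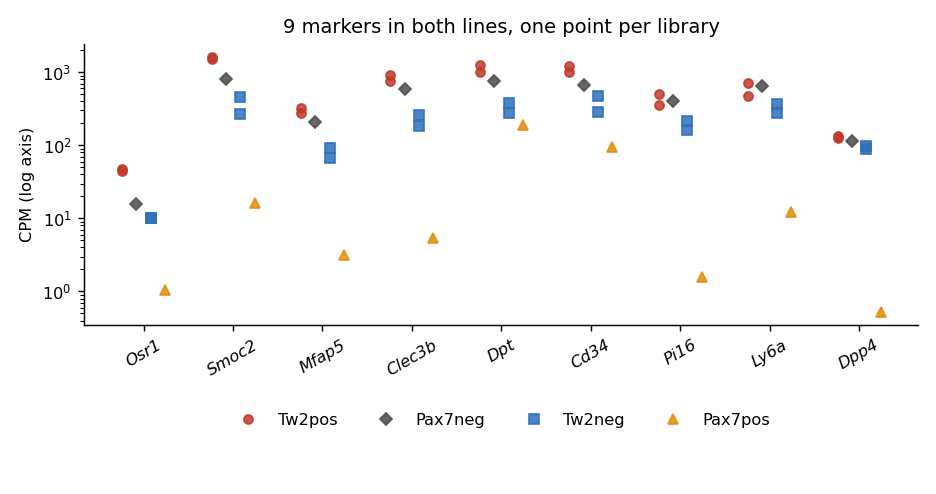
CPM of the 9 markers in each of the 6 libraries, on a log axis, with 1 point per library. Pax7pos (triangles) is the lowest library for every marker; it comes nearest to the others for Dpt (192 CPM against 279.9 in the lower Tw2neg library) and lies farthest below for Pi16 and Dpp4.

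The change from unlabelled to labelled cells differed between the lines for all 9 members in the test of the difference itself, where 23.2% of genes passed as higher in the Twist2 line and 35.7% in either direction. The difference ran from 3.76 (Dpt) to 8.51 (Pi16) on the log2 scale. This test uses the same libraries as the comparisons above.

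The genes whose profiles lay closest to each member were found over the 6 libraries, as the smallest distance between log2 of CPM plus 1 after centring each gene on its own mean, among 4712 other genes whose mean reached 10 CPM. Smoc2 was closest to Dcn, decorin (distance 0.34), and Mfap5 to Smoc2 (0.45). Clec3b was closest to Dpep1, a dipeptidase (0.50), and Osr1 to Eya2 (0.44). Pi16 and Dpp4 had the same first neighbour, complement C3 (0.63 and 0.65), which stood at 2346 and 2733 CPM in Tw2pos, 1264.5 and 1243 in Tw2neg, 21.0 in Pax7pos and 2158 in Pax7neg. Ly6a was closest to Efemp1, an elastic fibre protein (0.36). Cd34 lay next to Igfbp7 (0.23), and Dpt next to Tmed3 (0.31), C1ra (0.31) and Serping1 (0.33). Hic1, over the 4 Twist2 libraries only, was closest to Tspan17 (0.02). With so few libraries a small distance describes a profile and shows no relation between genes.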

How the data were processed

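RNA of sorted tdTomato-positive and tdTomato-negative cells was sequenced in 6 libraries. The submitters' processing notes list TopHat2 2.0.0, DESeq2 1.6.3 and the build GRCm38/mm10. Counter, annotation and strand were not given in the sources used here. In 1 table the authors deposited a signal, read counts divided by a size factor per library, for the 4 Twist2 libraries, and in another CPM for both lines, where each Twist2 group is a mean, beside log2 fold changes. Divided by what 1 read is worth, 100% of values were whole (tolerance 0.01); reads were recovered so, and CPM per Twist2 library came from them and the deposited means. The status column deposited with CPM is 1 in every row and was not used.

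Tw2pos and Tw2neg were compared with limma 3.58.1 (R 4.3.3) on log2 of the normalised count plus 1, for the 14155 genes whose mean reached 10. The other tests used log2 of CPM plus 1 over all 6 libraries and 4939 genes. Both fits used a variance trend and had 2 residual degrees of freedom; p-values were adjusted by Benjamini-Hochberg. edgeR 4.0.16 and DESeq2 1.42.0 on recovered reads, other scalings, pseudocounts and filters, a replicate block and fits without 1 library were the alternatives. Fits were tested on simulated data.

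The members and lists were chosen with earlier results of these data known. Named genes are the 10 members, from each list the 2 of highest level and, per direction, the passing gene that changed most, the nearest profiles, and genes said to be chosen later; 1 gene that the rule names is not reported here. Positions and exon lengths are from GENCODE M21 (GRCm38) and may differ from the authors' annotation. Exons of Cd34, Pi16 and Dpp4 overlap an antisense gene, and Ly6a has close paralogues, so their reads are less certain. Figures were drawn with matplotlib 3.10.9 in Python 3.11.15.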

Additional observations from a re-analysis of the deposited data

Results flagged for a closer look

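The change from unlabelled to labelled cells differed between the Twist2 and the Pax7 line for all 9 members measured in both, by the test of that difference itself in the 6-library fit (limma adjusted p from 9.2e-05 to 0.00194, where 23.2% of genes passed as higher in the Twist2 line). The difference of the log2 changes was 8.51 for Pi16, 8.44 for Clec3b, 7.71 for Smoc2, 7.62 for Mfap5, 6.71 for Dpp4, 6.48 for Ly6a, 5.10 for Osr1, 4.39 for Cd34 and 3.76 for Dpt. Dpp4 shows how this came about: its log2 change was 0.46 within the Twist2 line, while it fell from 115 CPM in Pax7neg to 0.522 CPM in Pax7pos. The lone Pax7 libraries were assumed to vary like the Twist2 ones.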

How the results depend on the processing

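All 9 members stayed higher in Tw2pos than in Pax7pos, and different between the lines, under every alternative run that kept them in the table. The members higher in Tw2pos than in Tw2neg numbered 8, and 5 to 9 with 1 library left out; the 5 came without Tw2pos replicate 2. Members lower in Tw2neg than in Pax7neg numbered 0, and 0 to 7 with 1 library left out. The replicate block, fitted for the Twist2 line only, called 9 members and 6627 genes, with Ly6a passing (0.86, adjusted p = 0.0218). Same-numbered libraries deviated together (r = 0.26 across 14155 genes), but the labels do not say that a number marks a shared animal or day. The Pax7 libraries carry no number. For Ly6a they deviated in opposite directions in the Twist2 line. Replicate 1 was the lower in Tw2pos (5909 against 8820 normalised counts) and the higher in Tw2neg (4585 against 3447). The count of all genes called between Tw2pos and Tw2neg was 5470, with 2578 to 7370 when 1 library was left out and 3097 in the 6-library fit, which tests fewer genes. Between Tw2pos and Pax7pos it was 2905, with 1658 to 3817 without 1 library, 1501 at a mean of at least 50 CPM (fewer genes tested) and 1860.0 under quantile normalization. Between Tw2neg and Pax7neg it was 3, with 47 to 1049 without 1 library, 18 at a mean of at least 50 CPM, 1 with no trend, with a pseudocount of 10 or under quantile normalization, and 0 with edgeR. The difference between the lines called 1764 genes, 952 to 3173 without 1 library, 979 at a mean of at least 50 CPM and 962 under quantile normalization. Signs turned between Tw2pos and Pax7neg for Ly6a (−0.43 to 0.14 without 1 library) and Pi16 (−0.19 to 0.31, and −0.16 under quantile normalization), for Osr1 (−0.12) between Tw2neg and Pax7pos, and for Smoc2 (−0.16) and Osr1 (−0.12) when divided by the core fibroblast mean; the cause was not tested. Counts of 5 to 15 reads limit Dpp4, Osr1 and Pi16 in Pax7pos.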

Other observations

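Relatives of the markers by gene family did not all move with them. Of 17 relatives tested between Tw2pos and Tw2neg, 6 passed as higher, 5 as lower and 6 did not pass (18.7% of all genes were higher and 20.0% lower), with a median log2 fold change of 0.23. Among the relatives of Ly6a, Ly6e had 3215 and 4089.8 normalised counts in Tw2pos and 9806 and 11197 in Tw2neg (log2 fold change −1.53, SE 0.24, limma adjusted p = 0.00614). Ly6c2, a surface protein of monocytes, had 8.92 and 12.1 against 904 and 1137 (−6.48, SE 0.29). Ly6c1, of endothelium and adventitial fibroblasts, had 3176 and 4091 against 3846 and 2201, and the groups overlapped (0.31, limma adjusted p = 0.471). Mfap4, a microfibril-associated glycoprotein, had 4945 and 6635 against 985 and 418, a log2 fold change of 3.16 (SE 0.41).

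Some pairs of relatives are given although they were chosen after their values were seen. Fap, the peptidase closest to Dpp4 and known from activated fibroblasts, had 1492 and 1621 normalised counts in Tw2pos and 509 and 382 in Tw2neg (log2 fold change 1.82, SE 0.21), against 0.46 for Dpp4. Podxl, a sialomucin of the Cd34 family known from endothelium, had 845 and 626 against 5159 and 1785.5 (−2.06, SE 0.49), and Podxl2, of the same family, had 320.0 and 398 against 105 and 59.2 (2.16, SE 0.33). Cd34 itself was at 1.59. The differences between relatives were not tested.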
